A study of Mus musculus with 12 samples.

Results

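The 3 genes Slc25a37, Entpd4 and Loxl2, of 20281 autosomal genes measured, lie in an interval of mouse chromosome 14 that was followed in 12 tumours by array comparative genomic hybridisation, a method in which tumour DNA and reference DNA labelled with different dyes compete for the same probes. The interval was taken as the probes of the array that start between positions 69876584 and 70090608 of chromosome 14 (mm9), together with any other probe named for those 3 genes. This gave 24 probes of the 170305 measured: 23 inside the interval and 1 probe of Slc25a37 just beyond its left edge. The 171 probes within 1 Mb on either side (75 to the left and 96 to the right) served as flanks. The interval and its edges were chosen because 10 of the 12 tumours read high there and lymphomas WT1113 and WT1114 did not, so the levels of the interval are given as a description, without a test.

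The study compared tumours of male C57BL/6 mice with and without Mutyh, the gene of a DNA glycosylase that removes adenine paired with oxidised guanine. Treated mice received 5 intraperitoneal injections weekly, over 12 weeks, of ferric nitrilotriacetate (Fe-NTA), an iron compound that damages the kidney by oxidation. The dose was 3 mg iron per kg body weight in the first week and 5 mg in the other 11, and mice were killed at about 120 weeks. The tumours were 3 renal cell carcinomas of treated Mutyh knockout mice (KO1080, KO1097 and KO1134), 1 of a treated wild-type mouse (WT1179), 2 lymphomas of treated knockout mice (KO1077 and KO1111), 1 of an untreated knockout mouse (KO1414), 3 of treated wild-type mice (WT1113, WT1114 and WT1121) and 2 of untreated wild-type mice (WT1405 and WT1420). Tumour DNA was in the red channel of every array, and normal kidney DNA of a C57BL/6 mouse was in the green. No normal tissue of the tumour-bearing mice themselves was analysed here, so a copy number change that arose in a tumour and one that its mouse carried in all cells cannot be told apart. Each tumour came from a mouse with its own number and was hybridised once, so that measurement error between repeat arrays is not known.

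Slc25a37 encodes mitoferrin-1, which carries iron across the inner mitochondrial membrane and is needed for haem synthesis in red cell precursors. Entpd4 encodes an ectonucleoside triphosphate diphosphohydrolase of intracellular membranes that hydrolyses nucleotides. Loxl2 encodes lysyl oxidase-like 2, a secreted copper-dependent amine oxidase that cross-links collagen and elastin.

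The probes below mark the 3 genes and, on each side, the outermost probe inside the interval and the first probe beyond it. In WT1121 and WT1405 the first probe beyond the left edge also read high. Sequences are as the array files print them, with positions in mm9. The files name a gene for a probe but not its strand, exon or intron, and no part is capitalised.
Slc25a37 probe beyond the left edge (chr14:69863952-69864011): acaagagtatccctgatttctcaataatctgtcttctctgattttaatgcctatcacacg
Slc25a37, first probe inside (chr14:69876584-69876643): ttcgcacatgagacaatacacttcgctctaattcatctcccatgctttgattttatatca
Entpd4, middle of its 3 probes (chr14:69962822-69962881): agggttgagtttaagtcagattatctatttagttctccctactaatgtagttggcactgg
ENSMUST00000126459, inside (chr14:70006915-70006974): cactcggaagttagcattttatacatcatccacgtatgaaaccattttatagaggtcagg
Loxl2, its exception among the 23 probes (chr14:70023334-70023393): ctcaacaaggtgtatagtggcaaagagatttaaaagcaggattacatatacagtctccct
Loxl2, last probe inside (chr14:70090549-70090608): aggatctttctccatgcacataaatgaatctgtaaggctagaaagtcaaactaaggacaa
ENSMUST00000126459, first probe beyond the right edge (chr14:70096263-70096322): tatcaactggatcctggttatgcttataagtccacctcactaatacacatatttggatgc
On all 12 arrays each of the 23 probes inside the interval was well above background in either colour and none was saturated. They held 33.3% to 40.0% G and C bases (median 38.3%), and none shared a run of 25 bases with another probe of the array. Matches of the probes elsewhere in the genome were not tested. Over the 23 probes the correlation between G and C content and the difference of the 2 tumour states was -0.03.

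On each array at least 99.86% of spots passed Agilent's background test in red and green, and the median signal was between 63.6 and 124 times the background noise. One Mutyh probe at chr4:116490496-116490555 checked the labels: it read -3.21 to -2.39 on the log2 scale in the 6 knockout tumours, against -0.75 to 0.14 in the 6 wild-type tumours. The other Mutyh probe (chr4:116480656-116480715) read -0.58 to 0.26 in knockout tumours and -0.82 to 0.20 in wild-type tumours, and did not separate them. Arrays lay on 3 slides of 4, and slide 1 held the 4 carcinomas alone, so tumour type and slide 1 cannot be told apart. Slide 2 held both states of the interval (KO1077 and KO1111 beside WT1113 and WT1114). Slide 3 held every untreated tumour (KO1414, WT1405 and WT1420), with WT1121 as the single treated one, so treatment and slide 3 largely coincide.

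The interval stood about 1.8 times above its flanks in 10 tumours and level with them in 2. Values are log2 ratios of tumour to reference kidney, centred on the most frequent value of each array's autosomes, and each is the mean of the 23 probes less the mean of the 171 flank probes. In the carcinomas of knockout mice this difference was 0.88 in KO1080, 0.89 in KO1097 and 0.90 in KO1134, and in the wild-type carcinoma WT1179 it was 0.92. In the lymphomas of knockout mice it was 0.88 in KO1077, 0.89 in KO1111 and 0.91 in KO1414. In the lymphomas of wild-type mice it was 0.86 in WT1121, 0.94 in WT1405 and 0.67 in WT1420, against 0.0036 in WT1113 and 0.0015 in WT1114. Of the 10 high tumours 9 thus lay between 0.86 and 0.94, WT1420 lay below them, and no tumour lay between 0.0036 and 0.67. The standard error over probes was 0.029 to 0.040 in each tumour.

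The 10 high tumours averaged 0.87 ± 0.077 (SD, n = 10), a ratio of 1.83 to the flanks (range 1.59 to 1.92), whereas WT1113 and WT1114 averaged 0.0025 ± 0.0015 (SD, n = 2). Without WT1420 the mean of the high tumours was 0.90 ± 0.025 (SD, n = 9). These 9 tumours are of both types and both genotypes. In each high tumour at most 3 of the 171 flank probes reached the lowest probe of the interval, whereas 168 and 165 did in WT1113 and WT1114. The spread of the 23 probes within a tumour (SD 0.13 to 0.18) was like that of the flanks (SD 0.10 to 0.18).

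**Figure D1:**
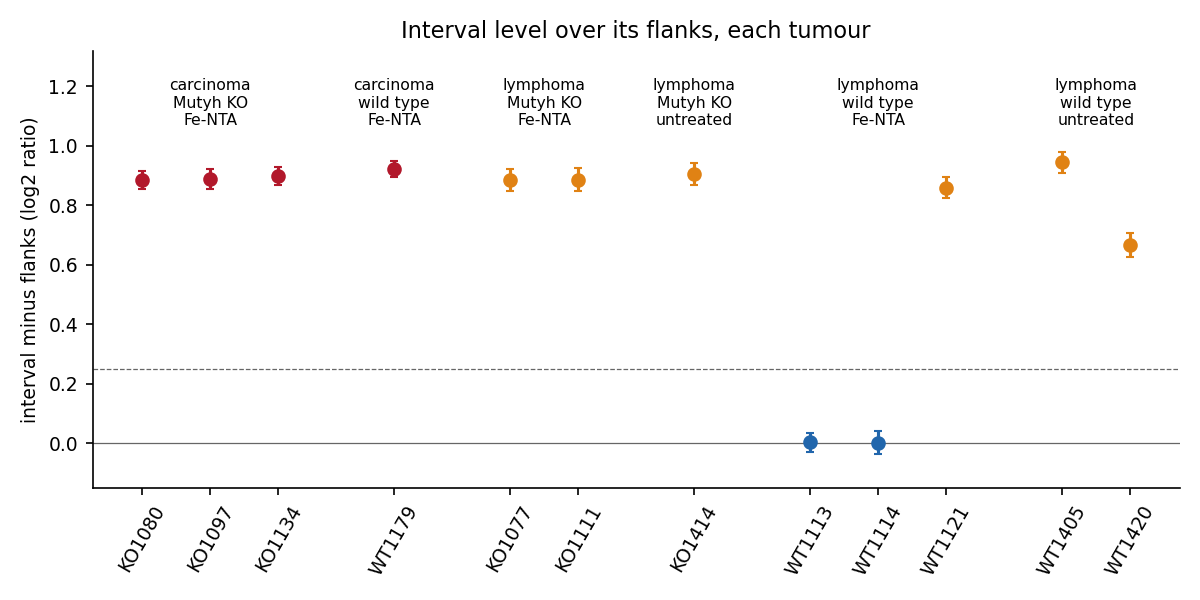
Interval level of each tumour, as the mean log2 ratio of the 23 interval probes minus that of the 171 flank probes, with tumours grouped by tumour type, genotype and treatment. Points are single arrays, bars are standard errors over probes, and the dashed line marks 0.25; WT1113 and WT1114 (blue) lie at 0.0036 and 0.0015, WT1420 at 0.67 and the other 9 between 0.86 and 0.94.

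By tumour type, the interval was 0.25 or more above its flanks in 4 of 4 carcinomas (0.90 ± 0.017, SD, n = 4) and in 6 of 8 lymphomas (0.64 ± 0.40, SD, n = 8). By genotype it was so in 6 of 6 knockout tumours (0.89 ± 0.0086, SD, n = 6) and in 4 of 6 wild-type tumours (0.57 ± 0.45, SD, n = 6). Among lymphomas it was so in 3 of 5 from treated mice (0.53 ± 0.48, SD, n = 5) and in 3 of 3 from untreated mice (0.84 ± 0.15, SD, n = 3). The large spread of the lymphoma, wild-type and treated-lymphoma groups came with WT1113 and WT1114, which belong to all 3 groups. High tumours were found in every group, and both low tumours were lymphomas of treated wild-type mice. Within that group WT1121 was high.

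The edges were sharp. A single raised step fitted by least squares to the interval and its flanks ran from 69876584 to 70090608 in 8 of the 10 high tumours, which are 23 probes and 214 kb. In WT1121 and WT1405 it ran from 69863952 to the same right end and took in 24 probes. Allowing for the gaps to the nearest probes outside, the step of the 8 tumours is at most 232.3 kb long, and probes lay a median of 9.02 kb apart. In WT1113 and WT1114 the best step covered other stretches, of 115 and 25 probes, and was 0.11 and 0.15 high.

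At the left edge the probe just inside, in Slc25a37, read 0.61 to 0.90 over the flanks in the 10 high tumours, against -0.11 in WT1113 and -0.18 in WT1114. The probe just outside, 12.6 kb to its left and also named Slc25a37, read 0.58 in WT1121 and 0.89 in WT1405. In the other 8 high tumours the same probe read 0.05 to 0.32 (median 0.21), which overlaps 0.21 in WT1113 and 0.16 in WT1114. The second probe outside was between -0.14 and 0.04 in all 12 tumours, WT1121 (-0.0038) and WT1405 (0.02) included. The left end of the raised stretch thus lay 1 probe further out in WT1121 and WT1405 than in the other 8, on the reading of the single first probe outside. In WT1121 that probe read less (0.58) than the first probe inside (0.88), and in WT1405 about the same (0.89 and 0.90).

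At the right edge the last probe inside, in Loxl2, read 0.41 to 0.79 over the flanks in the high tumours, against -0.01 in WT1113 and -0.08 in WT1114. The first probe outside it read -0.16 to 0.05 in the 10 high tumours, against -0.10 in WT1113 and -0.16 in WT1114. All 10 high tumours therefore ended between the same 2 probes. Both that last outside probe and 3 probes inside carry the name ENSMUST00000126459. Its inside probes averaged 0.87 to 1.15 in the high tumours, against 0.02 to 0.03 in WT1113 and WT1114. Its 5 outside probes averaged -0.13 to 0.02 in the high tumours, against -0.07 to -0.02 in that pair.

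**Figure D2:**
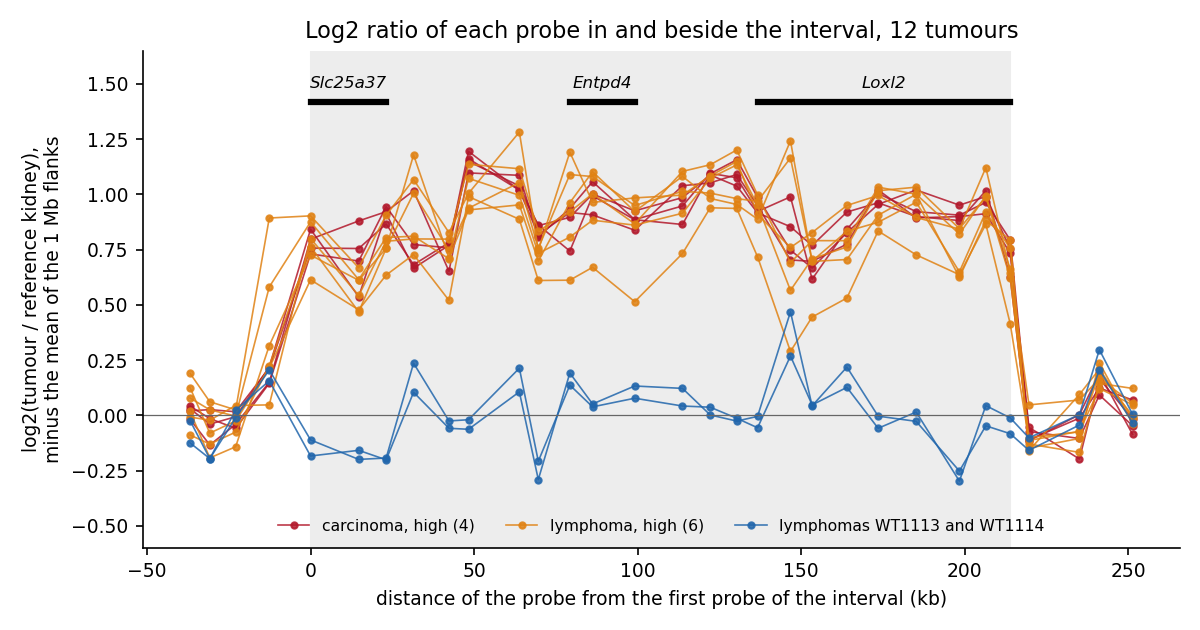
Log2 ratio of each probe in and beside the interval, minus the mean of the 1 Mb flanks, against distance in kb from the first probe of the interval, for 12 tumours. The shaded band is the interval and the black bars span the probes of each gene; red and orange lines stand near 0.9 inside the band and blue lines near 0, and 2 orange lines (WT1121 and WT1405) are raised at the first probe left of the band.

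Slc25a37 had 3 probes inside the interval. Their mean over the flanks was 0.79 in KO1080, 0.76 in KO1097 and 0.79 in KO1134, the knockout carcinomas, and 0.87 in WT1179. Among the high lymphomas it was 0.66 in KO1077, 0.70 in KO1111, 0.71 in KO1414, 0.76 in WT1121, 0.83 in WT1405 and 0.58 in WT1420, against -0.17 in WT1113 and -0.18 in WT1114. The 10 high tumours averaged 0.74 ± 0.085 (SD, n = 10) and none came near the pair. With the fourth, outside probe the gene averaged 0.63 ± 0.10 (SD, n = 10), and WT1121 and WT1405 then had its highest levels (0.72 and 0.84).

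Entpd4 had 3 probes, all inside. The gene read 0.89 in KO1080, 0.87 in KO1097 and 0.94 in KO1134 over the flanks, and 0.96 in carcinoma WT1179. It read 1.04 in KO1077, 1.00 in KO1111, 0.93 in KO1414, 0.85 in WT1121, 1.05 in WT1405 and 0.60 in WT1420, against 0.08 in WT1113 and 0.12 in WT1114. The high tumours averaged 0.91 ± 0.13 (SD, n = 10). RefSeq's gene order (GRCm38.p6, used for names alone) lists Entpd4 and a separate Entpd4b between Slc25a37 and Loxl2, with Synb, Gm16867, Gm21451 and LOC115488278. The array names Entpd4 alone, and whether its 3 probes also bind Entpd4b was not tested.

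Loxl2 had 9 probes, which reach the right edge. Over the flanks it read 0.84 in KO1080, 0.88 in KO1097 and 0.87 in KO1134, and 0.88 in carcinoma WT1179. It read 0.86 in KO1077, 0.87 in KO1111, 0.86 in KO1414, 0.83 in WT1121, 0.88 in WT1405 and 0.61 in WT1420, against 0.0083 in WT1113 and 0.03 in WT1114. The high tumours averaged 0.84 ± 0.083 (SD, n = 10), and 9 of them differed by no more than 0.05. All 12 tumours were also fitted to tumour type, genotype and treatment together, on gene levels without subtraction of the flanks and with all 4 probes of Slc25a37; the differences are given without a test. Carcinomas minus lymphomas gave 0.16 ± 0.17 (SE) for Slc25a37, 0.09 ± 0.18 for Entpd4 and 0.15 ± 0.17 for Loxl2. Knockouts minus wild types gave 0.09 ± 0.15, 0.27 ± 0.16 and 0.24 ± 0.15 for the 3 genes in the same order. Treated minus untreated tumours gave -0.24 ± 0.17, -0.21 ± 0.19 and -0.23 ± 0.18. WT1113 and WT1114 are both lymphomas of treated wild-type mice, so their low levels enter all 3 comparisons. The part of the pair in these differences was not tested.

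The remaining probes inside the interval carry other names or none. ENSMUST00000059362 (1 probe) read 0.67 to 1.18 over the flanks in the high tumours, against 0.10 to 0.24 in WT1113 and WT1114. ENSMUST00000134997 (1 probe) read 0.61 to 0.86, against -0.29 to -0.21. These transcript identifiers are not named by the gene tables used here. The other 3 probes have no gene name and were all among those whose 2 states did not overlap.

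Probe by probe, the 10 high tumours lay above both WT1113 and WT1114 at 22 of the 23 probes. The same was true of 2.6% of the autosomal probes (4181 of 161102), and since the interval was chosen for this pattern the 2 figures are set side by side without a test. The gap between the lowest high tumour and the higher of the pair, over the flanks, was 0.5 or more at 16 of the 23 probes. Before the flanks were subtracted it was 0.5 or more at 14 probes, against 0.0186% of autosomal probes (30 of 161102). Those 30 include the 14, and outside the interval the count was 16 of 161079. The mean of a probe over the high tumours ran from 0.62 to 1.07 over the flanks, and its distance from the mean of the pair ran from 0.43 to 1.11 (median 0.92).

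The exception was the Loxl2 probe at chr14:70023334-70023393, printed above. Its log2 ratio, without subtraction of the flanks, was 0.70 in KO1080, 0.73 in KO1097 and 0.57 in KO1134, and 1.00 in carcinoma WT1179. It was 1.18 in KO1077, 1.29 in KO1111, 0.65 in KO1414, 0.57 in WT1121, 0.74 in WT1405 and 0.33 in WT1420, against 0.32 in WT1113 and 0.54 in WT1114. The 2 states overlapped at this probe through WT1420 and WT1114. KO1077 and KO1111, the high tumours on slide 2, read highest at it and WT1113 and WT1114, on the same slide, read higher than at the other 22 probes; the part of the slide in this was not tested.

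WT1420, from an untreated wild-type mouse, stood apart within the high state. It was the lowest of the 10 high tumours at 19 of 23 probes and below the mean of the other 9 at 23 of 23. The distance from that mean averaged -0.23 ± 0.11 (SD over 23 probes) and ran from -0.57 to -0.09, a level 0.742 times as high on the log2 scale. Its edges were those of the other 7 tumours with 23 probes in the step.

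The 2 colours were also read apart, each as log2 signal in the interval less the flanks and less the mean of the 12 arrays. The red signal, from tumour DNA, was -0.03 to 0.25 in the 10 high tumours, against -0.72 in WT1113 and -0.71 in WT1114. The green signal, from reference kidney DNA, was -0.05 to 0.04 in the high tumours, against 0.01 in WT1113 and 0.02 in WT1114. The range over 12 arrays was 0.97 in red and 0.088 in green, so the 2 states were apart in the tumour DNA by more than the whole range of the reference. As the same kind of reference DNA was on every array, the ratios give each tumour relative to that kidney and not an absolute copy number.

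**Figure D3:**
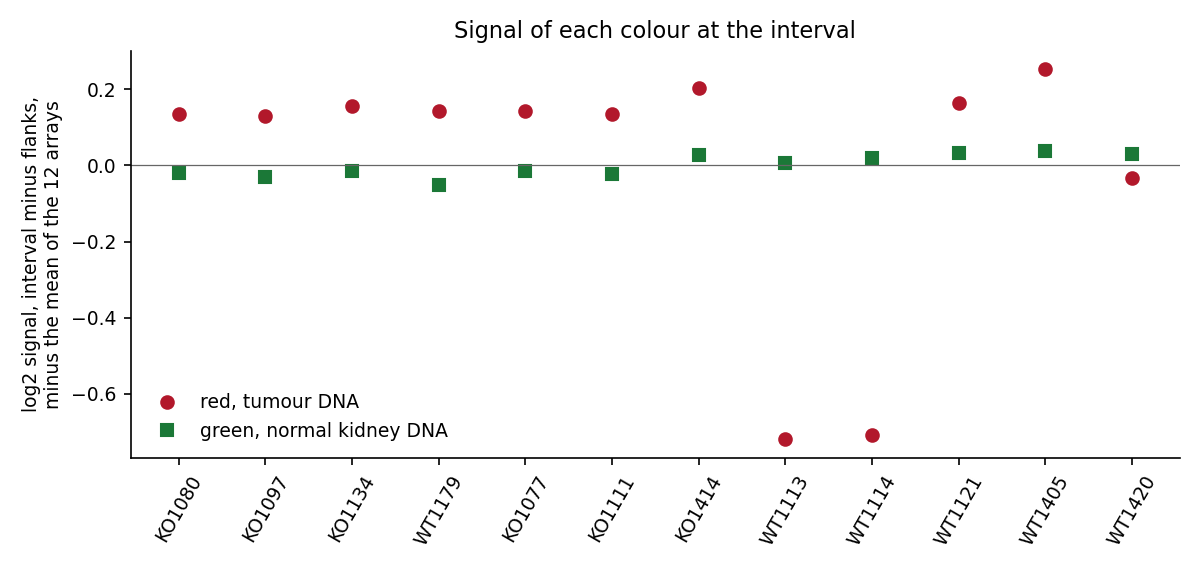
Signal of each colour at the interval for 12 arrays, as log2 signal of interval minus flanks, minus the mean of the 12 arrays (vertical axis). Circles are tumour DNA (red dye) and squares are reference kidney DNA (green dye); the circles of WT1113 and WT1114 lie near -0.7 and all squares lie between -0.05 and 0.04.

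Samples of solid tumours and lymphomas hold other cells too, and the share of tumour cells was not measured. As a guide to it, the deepest called segment of 10 Mb or more on the autosomes outside chromosome 14 was read in each tumour, and turned into a share of cells on the assumption that it is the loss or gain of 1 of 2 copies. In the carcinomas the deepest change was -0.44 in KO1080 (chromosome 4), -0.68 in KO1097 (chromosome 16) and -0.30 in KO1134 (chromosome 3), and -0.72 in the wild-type WT1179 (chromosome 15). These give shares of 52.3%, 74.8%, 38.1% and 79.0% of cells. In the high lymphomas it was 0.49 in KO1111 and 0.30 in KO1414 (both chromosome 11), 0.33 in WT1121 (chromosome 2) and 0.52 in WT1405 (chromosome 6), which give 81.7%, 46.3%, 51.7% and 87.4%. In the pair it was 0.48 in WT1113 (chromosome 7) and 0.38 in WT1114 (chromosome 1), which give 79.0% and 61.1%. KO1077 and WT1420 had no such change, so no share was derived for them from a large segment. A change present in only some tumour cells would make a share too low, and this was not tested.

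In order of these shares, the interval stood at 0.90 in KO1134 (38.1%), 0.91 in KO1414 (46.3%), 0.86 in WT1121 (51.7%), 0.88 in KO1080 (52.3%), 0.89 in KO1097 (74.8%), 0.92 in WT1179 (79.0%), 0.89 in KO1111 (81.7%) and 0.94 in WT1405 (87.4%). The levels of the 8 thus spanned 0.084, while the shares differed 2.30-fold, and the 2 highest levels were in WT1405 and WT1179. As a description of 8 points that share their reference DNA, Pearson's r between share and level was 0.48 and Spearman's rho 0.31, and r was 0.35 over the 6 left without the 2 shares farthest from the median. WT1113 and WT1114, at 0.0036 and 0.0015, had shares inside the range of the 8.

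By arithmetic, 2 more copies in the tumour cells alone would give log2 ratios of 0.47 to 0.91 at these 8 shares, a span of 0.44, and all 8 tumours lay above the value for their own share. This takes the flanks as 2 copies. In KO1134, whose flanks were called lost, the interval before subtraction (0.62) also lay above its value of 0.47. Losses at antigen receptor genes, where lymphoid cells delete DNA as they rearrange them, give other shares by the same assumption. At Igh the loss was -0.43 in KO1111 (51.7%), -0.71 in KO1414 (77.8%) and -1.05 in WT1121, which exceeds the loss of 1 of 2 copies in every cell, against -0.49 in WT1113 (57.7%) and -0.30 in WT1114 (37.5%). At Tcra/Tcrd it was -0.47 in KO1077 (55.5%) and -0.41 in WT1420 (49.1%), and WT1405 and the 4 carcinomas had no called receptor loss. At these shares 2 more copies would give 0.64 in KO1077 and 0.58 in WT1420, and both (0.88 and 0.67) lay above. Only the deepest receptor loss of each tumour was used. Tcra/Tcrd was also called lost, less deeply than Igh, in KO1414 (-0.41), WT1121 (-0.38) and WT1114 (-0.28). No share was taken from these, so the receptor shares of KO1414 and WT1121 rest on Igh alone. With the larger of the 2 shares, held to 100% in WT1121, 7 of the 8 tumours lay above the value for 2 more copies. WT1121 (0.86) lay below its value of 1. Its Igh loss is deeper than the assumption of 1 lost copy allows, so 100% is an upper limit and not a share read from that loss. How many Igh copies were lost was not tested.

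Were the additional copies in tumour cells alone and the flanks at 2 copies, the levels would need 4.08 copies per tumour cell in KO1111. In KO1414 they would need 5.77, both at the shares from the large segments. At the Igh shares the figure would be lower in KO1414 (77.8%) and higher in KO1111 (51.7%). The same arithmetic gives 6.54 in KO1134, but its flanks were called lost (mean -0.28), so that figure is too high. Counted over all cells, with reference and flanks at 2 copies, the levels correspond to 3.63 to 3.85 copies in the 8 tumours with a share. In WT1420 they correspond to 3.17, and the value for KO1134 is again too high. The log2 ratio would be 0.585 for 3 copies and 1 for 4 copies in every cell. These figures rest on the assumed 2 copies in reference and flanks. They also rest on shares that were not measured directly and differ with the change they are read from.

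**Figure D4:**
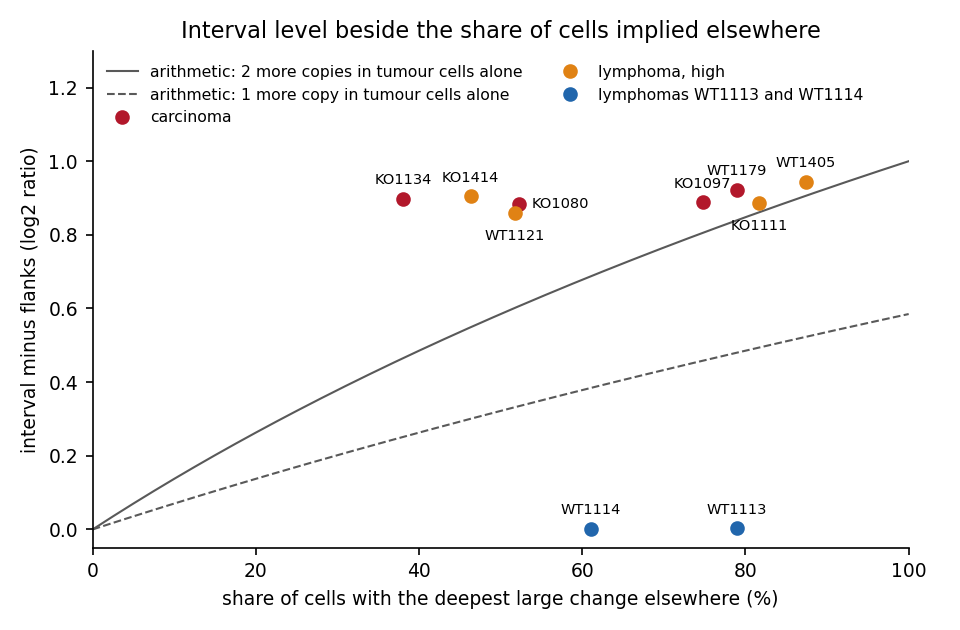
Interval level (log2 ratio, interval minus flanks) against the share of cells (%) implied by the deepest change of 10 Mb or more elsewhere, for the 10 tumours that have one. Lines are arithmetic for 2 more copies (solid) and 1 more copy (dashed) in the tumour cells alone, with the flanks at 2 copies. The flanks of KO1134 were called lost. The 8 high tumours lie between 0.86 and 0.94 at shares of 38.1% to 87.4%, above the solid line at these shares, and WT1113 and WT1114 lie near 0.

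KO1134 was the single tumour with a called loss around the interval. Its chromosome 14 was called lost from 61624506 to 69864011 at -0.30 and from 70096263 to 125164256 at -0.30, with the interval between them at 0.62. The difference from the flanks, 0.90, was within the range of the other carcinomas (0.88 to 0.92). KO1077 and WT1420, both without a large segment and with Tcra/Tcrd losses of -0.47 and -0.41, stood at 0.88 and 0.67 in the interval.

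Beyond the interval the nearest named genes were level in both states. AK157645 on the left (1 probe) read -0.10 to 0.16 over the flanks in the high tumours, against -0.09 to -0.05 in WT1113 and WT1114. Chmp7 on the right (2 probes), a component of the membrane-remodelling ESCRT machinery, read 0.02 to 0.13, against 0.09 to 0.15. The 35 genes of the flanks were tested with limma over all 20281 autosomal genes with tumour type, genotype and treatment in 1 model, at a Benjamini-Hochberg adjusted p under 0.05. In carcinomas against lymphomas 0 of the 35 passed (lowest adjusted p = 0.0652), against 13.6% of all genes (0.873% higher and 12.8% lower), and 12 of 35 had an unadjusted p under 0.05, against 5400 of 20281. In knockout against wild-type tumours 0 of 35 passed (lowest adjusted p = 0.849), against 0.0641% of all genes (0.00986% higher and 0.0542% lower), and 0 of 35 had an unadjusted p under 0.05, against 1031 of 20281. In treated against untreated tumours 0 of 35 passed (lowest adjusted p = 0.330), against 0% of all genes, and 4 of 35 had an unadjusted p under 0.05, against 2127 of 20281.

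Genes with roles like those of the 3 were followed in the same limma fit, in lists drawn up with earlier results of these data known. Of 22 genes of mitochondrial iron and haem handling 14 had autosomal probes, and 2 were lower in carcinomas than in lymphomas, against 12.8% of all genes that were lower. They were Alad, the second enzyme of haem synthesis, at -0.50 ± 0.11 (SE, adjusted p = 0.00617, chromosome 4), and Cpox, a later enzyme of the same pathway, at -0.57 ± 0.15 (adjusted p = 0.0233, chromosome 16), with 1 probe each. Of 7 other ENTPD nucleotidases 5 had probes, and Entpd5, an enzyme of the endoplasmic reticulum, was lower in carcinomas at -0.62 ± 0.086 (SE, adjusted p = 0.000328, 4 probes, chromosome 12). Called losses of 10 Mb or more averaged -0.72 to -0.30 on chromosome 4 and -0.71 to -0.30 on chromosome 12 in the 4 carcinomas. None of the 4 other lysyl oxidase genes passed the same limma test, and no gene of the 3 lists passed it in knockout against wild-type or in treated against untreated tumours. The median difference between carcinomas and lymphomas was -0.16 in the iron and haem list, -0.03 in the ENTPD list and -0.03 in the lysyl oxidase list, against -0.09 over all genes.

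Outside the interval and its flanks, the 5 genes of at least 2 probes whose level over the 12 tumours was most like the interval mean, out of 12477, were AK136010 (Pearson r = 0.83, chromosome 17), 1700015F17Rik (0.82, chromosome 5), 1700010I14Rik (0.80, chromosome 17), AK045464 (0.80, chromosome 19) and Galnt3 (0.77, chromosome 2). Their levels differed over the 12 tumours by 0.28 to 0.51, less than the 0.88 between the highest and the lowest interval mean. In all 5 WT1113 and WT1114 were the lowest pair. The genes were picked for this likeness out of many, and the 12 tumours share their reference DNA and slides.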

How the data were processed

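Tumour DNA (Cy5, red) and C57BL/6 kidney DNA (Cy3, green) of 12 tumours were hybridised to Agilent mouse genome arrays of 174305 non-control spots. Signals were extracted by the authors with Agilent Feature Extraction 10.7.1.1, per the file headers (10.7 per the submitters' processing notes), with background subtraction, spatial detrending and linear dye normalisation. The deposited files hold processed intensities of both colours, the same ratio on a log10 scale, and a series-wide table of log2 ratios, which is not centred (column medians near 0) and follows the scanner ratio in direction and scale. Probe positions are those of mm9, per the file headers.

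Here log2(red/green) was taken from the processed intensities, spots marked as outliers on an array were left out of that array, and each array was centred on its autosomal mode (Gaussian kernel, bandwidth 0.05). Segments were found by optimal partitioning (penalty 10 times log n times the noise variance) and called at 0.25 or more over at least 5 probes. Gene means of 20281 autosomal genes were fitted with limma 3.58.1 in R 4.3.3 (type, genotype and treatment, additive, Benjamini-Hochberg adjustment), and both steps were tested on simulated data. Python 3.11.15 did the rest. The precision is limited by the number of arrays, 1 per tumour.

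The members, lists and tests were chosen with earlier results of these data known. Named genes were the 3 members, other names inside the interval, the nearest gene on each side, flank or list genes that passed limma, and the 5 genes most like the interval in level. Alternatives were median centring, normexp background correction (offset 50), the log10 column, the series-wide table, outlier spots kept, other flanks, thresholds and probe summaries, and leaving out each tumour. No series column lacked a sample. Sequence lists of RefSeq (GRCm38.p6) held no promoter of the 3 members under their symbols.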

Additional observations from a re-analysis of the deposited data

Results flagged for a closer look

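The levels of the interval, its flanks and the 3 genes were screened for samples far from the rest of their group. The screen took 30 sets of values in groups of 4 to 8 tumours that overlap each other. Chance marks about 1 in 20 such sets, but that rate does not apply to sets chosen for 2 states. The lymphoma, wild-type and treated-lymphoma groups hold both WT1113 and WT1114, whose low levels can hide another far value. The 10 high tumours were not screened as a group, so WT1420 was not screened among them. All 3 marks fell on KO1134, the carcinoma of a treated knockout mouse whose chromosome 14 was called lost on both sides of the interval. Its flanks read -0.28, far below the other 3 carcinomas and likewise far below the other knockout tumours. Its interval read 0.62 before the flanks were subtracted, the lowest of the 6 knockout tumours by a wide gap. The interval over its flanks, 0.90, was not marked.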

How the results depend on the processing

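The main limits are 1 array per tumour, a shared reference kidney in place of each mouse's own tissue, and shares of tumour cells that were inferred. The number of tumours at 0.25 or more above the flanks was 10 under every alternative that kept all 12 tumours, thresholds of 0.15 and 0.4 included, and 9 to 10 with 1 tumour left out. The mean of the high tumours was 1.00 with normexp background correction, against 0.87 in the main setting, within 1 SD of that under the other alternatives, and 0.87 to 0.90 with 1 tumour left out. The mean of WT1113 and WT1114 was 0.0127 with normexp, 0.0378 against the rest of chromosome 14 and 0.0104 as a median over probes, and 0.0015 to 0.0036 with 1 of them left out. The exact edges were found in 8 of 10 high tumours, also with flanks of 0.5 Mb, and in 7 with normexp. Of the 5 genes most like the interval, 2 were shared when genes of 1 probe were let in and 3 with median centring.

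Genes called between carcinomas and lymphomas numbered 2765, against 1572 when genes needed at least 2 probes, and 2140 to 3300 with 1 tumour left out. Median centring moved the split from 177 higher and 2588 lower to 396 higher and 2136 lower. Genes called between knockouts and wild types numbered 11 to 13 with 1 tumour left out. Between treated and untreated tumours 0 were called, against 482 without WT1121, 2 without WT1179 and 1 without WT1420 (0 to 482 over all 12). Without WT1121 slide 3 held the untreated tumours and no others, so treatment and slide cannot be told apart in those 482. The cause was not tested. With the title number as a replicate block, 1887 genes were called between carcinomas and lymphomas and 0 between treated and untreated tumours; genotype could not be fitted beside it. The numbers mark different mice, and same-numbered carcinomas and lymphomas correlated at -0.10 to 0.16 over genes, with 1 of 4 carcinomas closest to its own number.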

Other observations

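Apart from the interval, 16 autosomal probes of 161079 read at least 0.5 lower in both WT1113 and WT1114 than in each of the other 10 tumours. Of these 10 lay on chromosome 12 between 59330285 and 100372624, 4 on chromosome 5 between 138091148 and 142475629, and 1 each on chromosomes 14 and 18. The values of the pair at these probes ran from -5.36 to -0.64. None of the 16 had a neighbouring probe that met the same rule, and the medians of their neighbours in the pair lay between -0.13 and 0.20. The reverse pattern, both at least 0.5 above every other tumour, was met by 16 probes, 3 of them on chromosome 7, where both tumours had called gains.

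WT1113 and WT1114 also had the most similar profiles of any 2 tumours (Pearson r = 0.76 over 2397 bins of 1 Mb), followed by KO1080 and KO1097 (0.71). Both are lymphomas of treated wild-type mice on slide 2. Their probe values differed with an SD of 0.144. Chromosome 7 was gained in both, at 0.48 in WT1113 and 0.37 in WT1114 towards its end, while a chromosome 15 gain was called in WT1113 and not in WT1114.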
